A study of Mus musculus with 6 samples.

Results

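The RNA of 40 mouse genes that act in mitosis was followed on 6 Illumina bead arrays. They were made from cells of livers with and without a hepatocyte deletion of DDB1, a subunit of a ubiquitin ligase. The genes were taken by name: every probe that the array annotation gives to one of the 40 symbols, or to an older name of it, was read. Of the 40 genes, 38 had a probe, with 76 probes in all, among 19057 named genes on the arrays, while Ccnb1 and Mki67 had none in the annotation used here. There were 4 arrays of EpCAM+ cells, sorted by flow cytometry from the non-parenchymal fraction as cells positive for the epithelial antigen EpCAM and negative for F4/80, a macrophage antigen. They came from livers of genotype DDB1F/F;Mx1-Cre+/-, from DDB1F/F;Alb-Cre+/- at 6 weeks of age, from DDB1F/F;Alb-Cre+/+ at 4 weeks, and from wild type mice fed a diet with DDC, a collidine compound that injures bile ducts, as a chemical injury model without the DDB1 deletion. The other 2 arrays held the hepatocyte fraction, pelleted at low speed, of DDB1F/F;Alb-Cre+/+ liver and of wild type liver. F marks an allele flanked by loxP sites, Alb-Cre is driven by the albumin promoter of hepatocytes, and Mx1-Cre is switched on by interferon, here through poly(I:C), in many cell types. The paper describes the deletion as restricted to hepatocytes and the ductular cells of the mutants as expressing DDB1. It also describes DDB1-expressing hepatocytes among depleted ones in Alb-Cre+/+ liver at 4 weeks. All mice were of a mixed C57BL/6 x 129 background. The labels name the tissue as mammary, whereas the study describes liver, and no age is given for the other 4 arrays, so that differences in age cannot be told apart from differences between conditions. Each condition was a single array, with no replicate.

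Mitosis is run by a small set of machines. Cyclin-dependent kinase 1 (Cdk1) with its cyclins starts it, the Polo and Aurora kinases build the spindle, the checkpoint holds chromosomes until their kinetochores are attached, and the anaphase-promoting complex then releases them before the central spindle directs cytokinesis. Most of these genes are silent in quiescent cells and are transcribed together in late G2, from promoters that often hold a CHR element, the site of the DREAM and B-Myb complexes, and CCAAT boxes, the site of NF-Y. Adult hepatocytes seldom divide, and in livers whose hepatocytes cannot divide EpCAM+ ductular cells, also called oval cells, expand.

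The promoters of 6 genes on which the comparisons turn are given to show these letters. Each runs from 120 bases before to 30 bases after the RefSeq start (build GRCm38.p6, 5′ to 3′ on the gene's strand), and capitals mark the CHR letters TTTGAA and the CCAAT letters, each on either strand.
Cdk1, chr10:69352883-69353032, minus strand: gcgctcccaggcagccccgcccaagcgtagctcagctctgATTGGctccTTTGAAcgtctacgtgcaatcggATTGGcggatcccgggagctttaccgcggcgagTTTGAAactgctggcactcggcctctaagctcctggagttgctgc
Plk1, chr7:122159315-122159464, plus strand: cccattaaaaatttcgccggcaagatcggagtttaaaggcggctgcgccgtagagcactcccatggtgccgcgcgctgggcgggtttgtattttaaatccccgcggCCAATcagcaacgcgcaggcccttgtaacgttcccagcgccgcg
Cdc20, chr4:118437314-118437463, minus strand: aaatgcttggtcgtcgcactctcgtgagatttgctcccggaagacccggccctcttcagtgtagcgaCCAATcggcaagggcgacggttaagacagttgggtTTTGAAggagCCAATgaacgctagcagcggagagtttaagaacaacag
Cenpa, chr5:30666766-30666915, plus strand: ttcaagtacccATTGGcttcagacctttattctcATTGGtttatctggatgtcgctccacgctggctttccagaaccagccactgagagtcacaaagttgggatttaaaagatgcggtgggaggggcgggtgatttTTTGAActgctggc
Prc1, chr7:80294331-80294480, plus strand: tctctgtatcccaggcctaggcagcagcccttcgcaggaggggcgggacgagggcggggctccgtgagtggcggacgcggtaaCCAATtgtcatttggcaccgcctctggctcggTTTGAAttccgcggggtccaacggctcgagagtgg
Nusap1, chr2:119618178-119618327, plus strand: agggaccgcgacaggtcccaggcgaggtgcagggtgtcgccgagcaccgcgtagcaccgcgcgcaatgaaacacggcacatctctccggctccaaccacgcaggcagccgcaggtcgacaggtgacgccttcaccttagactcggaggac
In Cdk1, CHR letters began at positions -71 and -15, in Cdc20 at -18 and in Prc1 at -5, counted from the start, and in Plk1 they began at 31, just past the stretch shown. Nusap1 held neither motif. Windows of 300 bases, 250 before and 50 after the start, were at hand for 33 of the 40 genes. TTTGAA or its complement TTCAAA lay in 24 of the 33, against 20.2% of all genes with a window, and CCAAT or ATTGG lay in 27, against 41.1%. Both motifs lay in 23, against 8.97% of all genes, and in 1 of the 33 genes their matches overlapped. These are matches of letters and were not tested as binding sites.

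Before the mitosis genes were compared, the arrays were set against their labels. Ddb1 gave a normalized signal of 169 in Alb-Cre+/+ hepatocytes and 499 in wild type hepatocytes, and 276 in Mx1-Cre, 205 in Alb-Cre+/-, 259 in Alb-Cre+/+ and 317 in DDC EpCAM+ cells; whether its probe lies in the deleted exons is not known. Epcam was above background, that is with a detection p under 0.05 against the negative control beads, in Mx1-Cre (162), Alb-Cre+/+ (126) and DDC (177) EpCAM+ cells, and not in Alb-Cre+/- EpCAM+ cells or on the hepatocyte arrays. The other ductular markers were high on all EpCAM+ arrays (9 of 9 above background on each, with summed signals of 42943 in Alb-Cre+/+ to 62620.0 in DDC cells). Between 11429 (wild type hepatocytes) and 17152 (DDC) of 45281 probes were above background, and the lowest signal above background was 159 in wild type hepatocytes and 110 to 119 elsewhere, so that low genes were harder to see in wild type hepatocytes.

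Of the 38 mitosis genes, 27 were above background in Mx1-Cre, 25 in Alb-Cre+/-, 24 in Alb-Cre+/+ and 25 in DDC EpCAM+ cells, and 26 in Alb-Cre+/+ and 16 in wild type hepatocytes. In all, 31 were above background on at least 1 array and 15 on all 6. Over those 31 genes, the median signal was 507 in Mx1-Cre, 295 in Alb-Cre+/-, 331 in Alb-Cre+/+ and 241 in DDC EpCAM+ cells, and 324 in Alb-Cre+/+ and 176 in wild type hepatocytes. A gene was read at its brightest probe, and signals are compared between arrays and not between genes.

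**Figure D1:**
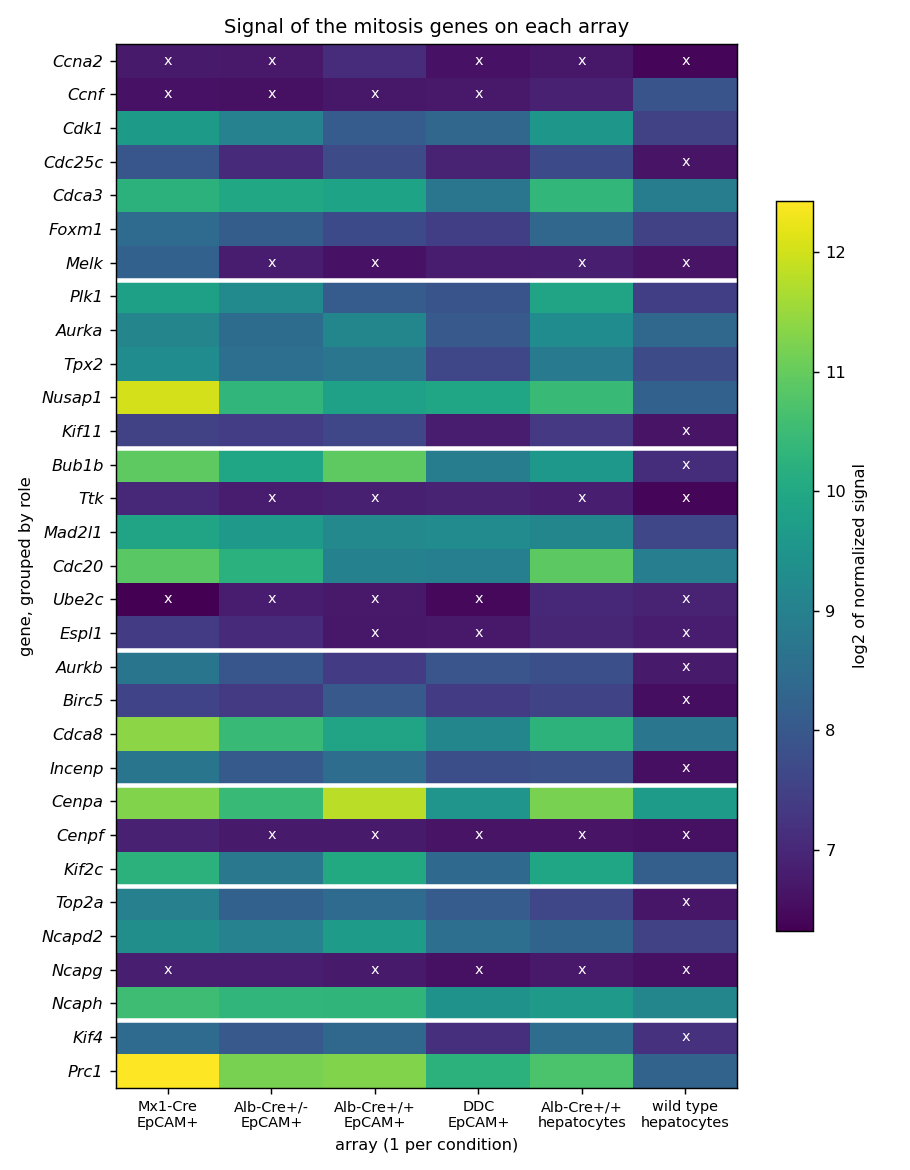
Normalized signal (log2, colour) of the 31 mitosis genes above background on at least 1 of the 6 arrays, 1 array per condition, with white lines between groups of genes by role and x where a signal was not above background. Mx1-Cre EpCAM+ cells held the highest signal of 17 of the 31 genes, and wild type hepatocytes the lowest of 16.

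The order of the arrays was uneven across these genes. Mx1-Cre EpCAM+ cells were the highest of the 6 arrays in 17 of the 31 genes, against 15.5% of all genes above background somewhere. Alb-Cre+/+ EpCAM+ cells were the highest in 6 (18.1% of all genes), Alb-Cre+/+ hepatocytes in 6 (12.9%) and wild type hepatocytes in 1, Ccnf (25.5%). Alb-Cre+/- and DDC EpCAM+ cells were the highest in none of the 31 (9.88% and 16.8% of all genes). Wild type hepatocytes were the lowest in 16 (23.8%) and DDC EpCAM+ cells in 6 (9.91%). Since the arrays measured bulk RNA, fewer dividing cells and less mitotic RNA per cell cannot be told apart.

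The first comparison asked how hepatocytes of the DDB1 mutant stood to wild type hepatocytes. Most mitosis genes that could be read gave more signal in the mutant. Prc1, which bundles the microtubules of the central spindle, gave 1655 in Alb-Cre+/+ hepatocytes and 306 in wild type hepatocytes, a 5.41-fold difference (log2 2.44, SE over beads 0.14). Plk1, the Polo kinase of mitotic entry and spindle assembly, gave 944 in the mutant and 176 in wild type (5.35-fold), and Nusap1, a spindle microtubule protein, 1386 and 298 (4.66-fold). These 3 genes had the largest measured folds of the set.

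Genes of mitotic entry and exit differed less widely but in the same direction. Cdk1 had a signal of 751 in Alb-Cre+/+ hepatocytes and 181 in wild type hepatocytes (4.14-fold). Cdc20, the activator of the anaphase-promoting complex, had 1916 in the mutant and 493 in wild type (3.88-fold). At the kinetochore, Cenpa, the histone H3 variant of centromeres, gave 2351 and 817 (2.88-fold), and Kif2c, a kinesin that takes microtubules apart at centromeres, 958 and 287 (3.33-fold), with the mutant first in both. Bub1b, the checkpoint kinase BubR1, gave 771 in the mutant and was not above background in wild type, which makes it at least 4.85-fold higher, by the lowest signal above background on the wild type array.

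**Figure D2:**
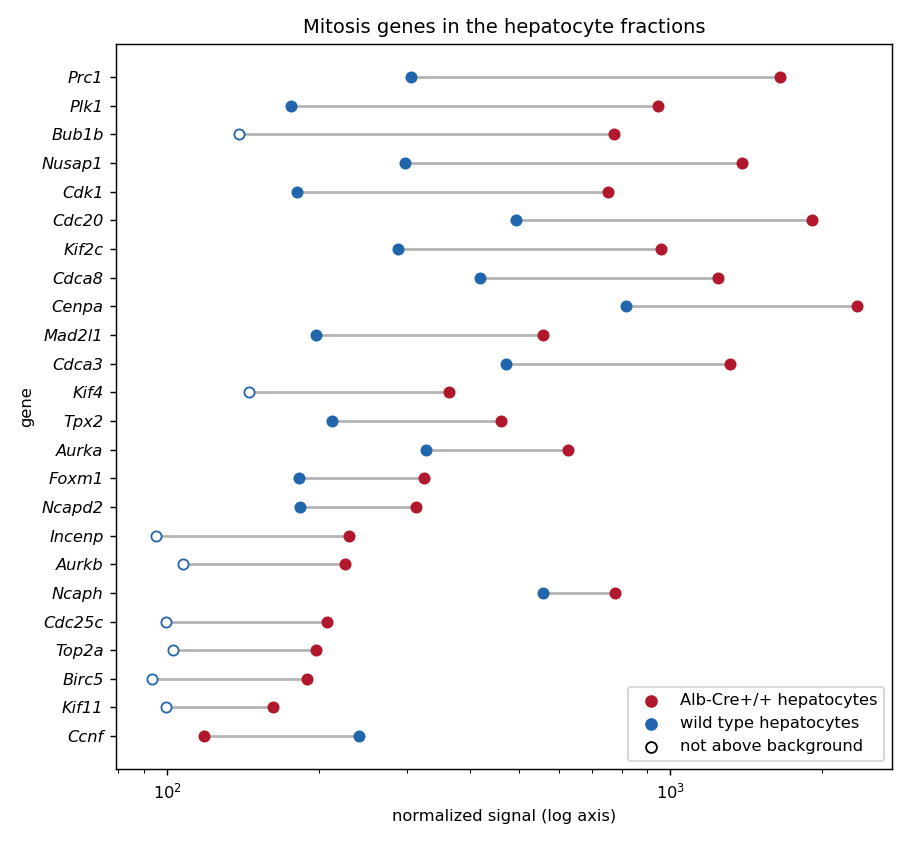
Normalized signal (log axis) of 24 mitosis genes in Alb-Cre+/+ hepatocytes (red) and wild type hepatocytes (blue), 1 array each, with open points for signals not above background. Of the 24 genes, 23 lie higher in the mutant (49.6% of all genes), but 8 of these are bounds, kept only above 1-fold, that could not lie lower. Ccnf lies lower, at 119 against 240.2.

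Another 4 genes read on both arrays were over 2-fold higher in the mutant. They were Cdca8, the borealin subunit of the chromosomal passenger complex (2.97-fold), Mad2l1, the checkpoint protein Mad2 (2.83-fold), Cdca3, which helps to trigger mitotic entry (2.79-fold), and Tpx2, the activator of Aurora A (2.17-fold). Kif4, a kinesin of chromosomes and the central spindle, was not above background in wild type (at least 2.28-fold higher in the mutant). Aurka, the Aurora A kinase itself (1.92-fold), Foxm1, the transcription factor of the late G2 genes (1.77-fold), and the condensin subunits Ncapd2 (1.70-fold) and Ncaph (1.39-fold) were higher by less than 2-fold. Ccnf, cyclin F, was the only member over 2-fold lower, with 119 in the mutant and 240.2 in wild type (2.02-fold).

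In counts, 16 mitosis genes were above background on both hepatocyte arrays, of which 11 were over 2-fold higher and 1 lower in the mutant, against 7.96% and 11.3% of 7023 genes. Their median log2 difference was 1.51 and that of all these genes -0.14. Another 8 were above background in the mutant alone with a bound above 1-fold, and 2 of these were at least 2-fold higher. Ube2c (131) and Espl1 (127) were also above background in the mutant alone. They lay under the lowest passing wild type signal of 159, and so gave no fold. With measured folds and bounds together, 13 of 24 were higher and 1 lower, against 11% and 10% of 8691 genes. With arrays scaled to a common median in place of quantile normalization, the median of all genes moved to a log2 of -0.33 and their split to 8.31% higher and 25.7% lower, while 11 of 18 mitosis genes were over 2-fold higher and 1 lower. These are values of 2 arrays, with no replicate and no p-value, and the error over beads covers the array measurement only.

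Markers of other liver cells differed between the same 2 arrays. Ductular markers summed to 8559 in Alb-Cre+/+ hepatocytes (9 of 10 above background) and 705 in wild type hepatocytes (1 of 10, Sox9), with Epcam itself above background on neither. Sinusoidal endothelial markers summed to 16663 (9 of 9) in the mutant and 3127 (6 of 9) in wild type, macrophage markers to 7798 (8 of 9) and 1639 (4 of 9), and stellate cell and fibroblast markers to 13582 (7 of 9) and 2867 (3 of 9). Most of the stellate cell and fibroblast sums was Reln, with 8647 and 1878. Hepatocyte markers summed to 196125 in the mutant and 298324 in wild type (12 of 14 above background on each). Lymphocyte markers were above background on neither array, neutrophil and myeloid precursor markers summed to 813 (2 of 7) and 177 (1 of 7), and erythroid markers to 1786 and 3497 (4 of 7 on each). The part of these cells in the mitosis gene result was not tested.

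Against wild type hepatocytes, EpCAM+ cells showed a wide span of mitosis gene signals. Prc1 gave 5536 in Mx1-Cre, 2351 in Alb-Cre+/-, 2472 in Alb-Cre+/+ and 1214 in DDC EpCAM+ cells, against 306 in wild type hepatocytes, that is 18.1-fold in Mx1-Cre and 3.97-fold after DDC. Nusap1 gave 4194, 1303, 904 and 958 in the same 4 EpCAM+ arrays, against 298 in wild type hepatocytes. Every EpCAM+ array lay above wild type hepatocytes in both genes.

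**Figure D3:**
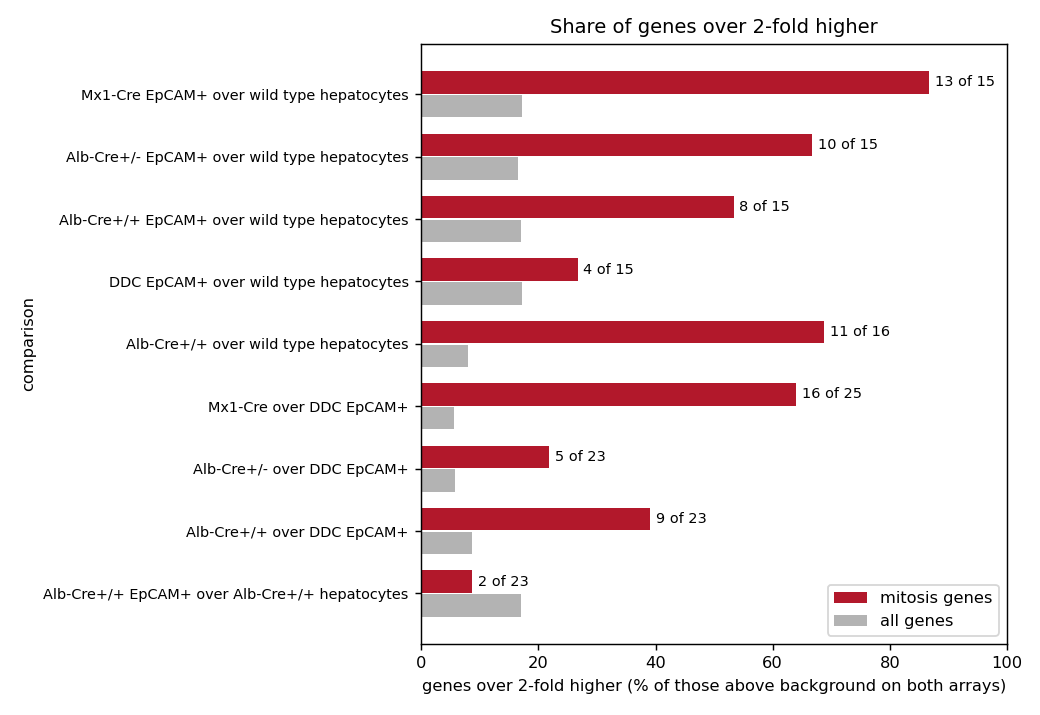
Share (%) of genes over 2-fold higher among those above background on both arrays of a comparison, for the mitosis genes (red, with counts) and all genes (grey), 1 array against 1 array in each row. The mitosis genes reached 13 of 15 in Mx1-Cre EpCAM+ cells over wild type hepatocytes and 4 of 15 in DDC EpCAM+ cells.

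Cdc20 and Plk1 divided the EpCAM+ arrays. Cdc20 had 1865 in Mx1-Cre and 1189.5 in Alb-Cre+/- EpCAM+ cells, but 511 in Alb-Cre+/+ and 495 in DDC EpCAM+ cells, the last 2 within 1.04-fold of the 493 in wild type hepatocytes. Plk1 had 895 in Mx1-Cre, 596 in Alb-Cre+/-, 275 in Alb-Cre+/+ and 241 in DDC EpCAM+ cells, with 176 in wild type hepatocytes. Of 15 mitosis genes above background on both arrays, 13 in Mx1-Cre, 10 in Alb-Cre+/-, 8 in Alb-Cre+/+ and 4 in DDC EpCAM+ cells were over 2-fold above wild type hepatocytes, and none was over 2-fold lower. The shares of all genes were 17.2%, 16.5%, 17% and 17.1% higher and 17.7%, 19.5%, 19.9% and 19.6% lower, in that order. With genes below background on 1 array as bounds, the counts were 18 of 26, 11 of 23, 12 of 24 and 5 of 21, against 21%, 20.7%, 21.4% and 21.2% of all genes, and Ccnf, at least 2.02-fold lower, was the single gene lower in each (17%, 17.5%, 19.3% and 18.6%). Median scaling changed the split of all genes to 16.1% higher and 31.2% lower for Mx1-Cre, 15.5% and 27.2% for Alb-Cre+/-, and 16.8% and 33.8% for DDC, and left 15 of 22, 11 of 21 and 3 of 18 mitosis genes higher. These 4 comparisons share the wild type array.

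The 4 EpCAM+ arrays were then tested together against the 2 hepatocyte arrays with limma, over the 8866 genes read above background throughout at least 1 of the 2 fractions. None of the 24 mitosis genes tested passed an adjusted p of 0.05, whereas 1057 genes (11.9%) were called higher and 936 (10.6%) lower. At an unadjusted p under 0.05, 6 of the 24 were higher (20.6% of all genes) and none lower (16.5%). Among these 6, Top2a, Bub1b and Incenp had entered the test through the EpCAM+ arrays alone, where they were high, so that they lend the count little weight. Cdc25c, Kif11, Aurkb, Birc5 and Kif4 had also entered through the EpCAM+ arrays alone, and Ccnf through the hepatocyte arrays alone. The median log2 difference of the 24 was 0.33, that of all genes 0.10. Since the hepatocyte arrays were a mutant and a wild type liver and the EpCAM+ arrays were 4 models, the spread in this fit is one between models, and a difference that missed the threshold may still exist.

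Top2a, the topoisomerase that untangles sister chromatids, came nearest to the threshold. It gave 507 in Mx1-Cre, 295 in Alb-Cre+/-, 353 in Alb-Cre+/+ and 273 in DDC EpCAM+ cells, against 198 in Alb-Cre+/+ hepatocytes and a signal not above background in wild type hepatocytes. All 4 EpCAM+ arrays lay above both hepatocyte arrays, with a log2 difference of 1.20 (SE 0.38, limma adjusted p = 0.0535), and its adjusted p was 0.0485 to 0.0499 under 4 alternative settings and reached 0.34 without the wild type array. The difference was 0.61 with the mean of all Top2a probes and 1.97 with normexp background correction. Ncapd2, a condensin subunit, did not overlap either, with 649, 519.7, 830.2 and 376 in the 4 EpCAM+ arrays against 313 and 184 in the hepatocyte arrays (log2 1.25, SE 0.43, limma adjusted p = 0.072). Mad2l1 was the third, with 954, 786, 584 and 613 in EpCAM+ cells against 558 and 197 (log2 1.12, SE 0.48, limma adjusted p = 0.12). That made 3 of 24 mitosis genes that were higher in EpCAM+ cells without overlap at the brightest probe, against 26.6% of all genes tested. Of these 3, Top2a had entered the test through the EpCAM+ arrays alone, where it was high, so that it lends the count little weight. At a further probe Mad2l1 gave 481 in Alb-Cre+/+ EpCAM+ cells and 499 in Alb-Cre+/+ hepatocytes. A further probe of Ncapd2 gave 111 in DDC EpCAM+ cells and 129 in Alb-Cre+/+ hepatocytes, so that both genes overlapped there. A further probe of Top2a was above background in DDC EpCAM+ cells alone (119). In 1 of 24, Ccnf, all EpCAM+ arrays lay below both hepatocyte arrays, and not above background (20.2% of all genes). The exact two-sided permutation p of each of the 4 genes was 0.067, the smallest that 15 splits of 4 against 2 arrays can give.

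The hepatocyte arrays decided much of this comparison. Prc1 (log2 1.81, SE 0.73, limma adjusted p = 0.11) and Bub1b (log2 1.80, SE 0.78, limma adjusted p = 0.13) had the largest differences, but in both genes Alb-Cre+/+ hepatocytes, at 1655 and 771, lay above the DDC EpCAM+ array, at 1214 and 471. With both hepatocyte arrays the median log2 of the mitosis genes was 0.33 and 21 of 24 were above 0 (54.6% of all genes). Without the Alb-Cre+/+ hepatocyte array it was 1.12 and 23 of 24 were above 0, and without the wild type array -0.06 and 12 of 26. The shares of all genes in these last 2 fits were not determined. Genes that had entered through the EpCAM+ arrays alone were not above background in wild type hepatocytes. Their sign against that array alone was thus largely set in advance.

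Among EpCAM+ cells, those of the DDB1 mutants were compared with those of the DDC diet, the genetic against the chemical model. Most mitosis genes stood higher in the mutants, most widely in Mx1-Cre. With bounds included, 27 of 27 lay above 1-fold over DDC in Mx1-Cre, 24 of 26 in Alb-Cre+/- and 20 of 25 in Alb-Cre+/+. The shares of all genes were 52.5%, 50.7% and 50.3%. Among those lower in Alb-Cre+/+ than after DDC were Cdk1 (0.84-fold) and Aurkb (0.69-fold). Cdca8 gave 2662, 1386 and 952 in Mx1-Cre, Alb-Cre+/- and Alb-Cre+/+ EpCAM+ cells, against 563 in DDC EpCAM+ cells. Bub1b gave 1922, 965 and 1947 in the mutants, against 471 after DDC, and Cenpa 2481, 1388 and 3589, against 726. In all 3 genes every mutant array lay above the DDC array.

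Between Mx1-Cre and DDC, 16 of 25 mitosis genes above background on both arrays were over 2-fold higher and none lower, against 5.49% and 4.7% of 9028 genes, with a median log2 of 1.31 for the mitosis genes and 0.04 for all. The largest folds were those of Cdca8 (4.73), Prc1 (4.56), Nusap1 (4.38), Bub1b (4.08) and Cdc20 (3.77). Between Alb-Cre+/+ and DDC, 9 of 23 were over 2-fold higher and none lower (8.62% and 8.21% of 8570 genes), led by Cenpa (4.94-fold), Bub1b (4.14-fold) and Kif2c (3.10-fold). Between Alb-Cre+/- and DDC the count was 5 of 23 higher and none lower (5.75% and 5.02% of 9178 genes), and the genes were Plk1 (2.47-fold), Cdca8 (2.46-fold), Cdca3 (2.42-fold), Cdc20 (2.40-fold) and Bub1b (2.05-fold). With bounds included the counts were 16 of 27, 9 of 25 and 5 of 26, with 5.3%, 8.23% and 5.82% of all genes higher, and none was lower (4.87%, 8.21% and 4.67%). The 3 comparisons share the DDC array.

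**Figure D4:**
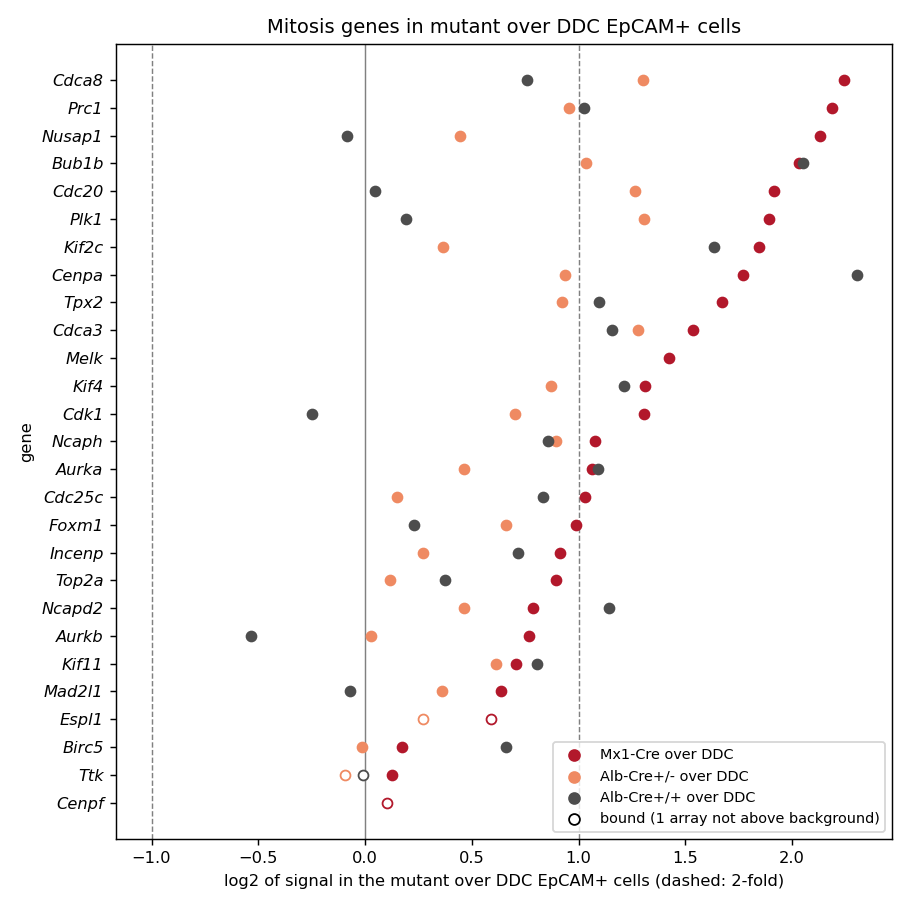
Log2 of the signal in EpCAM+ cells of each DDB1 mutant over that in DDC EpCAM+ cells for 27 mitosis genes, 1 array per condition, with filled points for genes above background on both arrays, open points for bounds and dashed lines at 2-fold. All points of Mx1-Cre lie above 0, 2 of them bounds that could not lie lower, and 16 lie beyond 2-fold.

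Under median scaling the median of all genes moved to a log2 of 0.27 for Alb-Cre+/+ over DDC, 0.18 for Alb-Cre+/- and 0.12 for Mx1-Cre. The mitosis genes over 2-fold higher were then 12 of 24, 7 of 25 and 18 of 27, in that order. The split of all genes was 23% higher and 6.27% lower for Alb-Cre+/+, 9% and 4.2% for Alb-Cre+/-, and 6.58% and 5.37% for Mx1-Cre. In the limma fit of the 3 mutant EpCAM+ arrays against DDC, in which the lone DDC array was assumed to vary like the other groups, none of 25 mitosis genes passed. All 25 differences were above 0, with a median log2 of 0.83 against 0.00 over 10373 genes, of which none was called higher (0%) and 79 lower (0.762%). At an unadjusted p under 0.05, 2 of the 25 were higher (2.05% of all genes) and none lower (5.37%). They were Ncaph, with 1477, 1299 and 1269.95 in Mx1-Cre, Alb-Cre+/- and Alb-Cre+/+ against 700.3 after DDC (log2 0.94, SE 0.29, limma adjusted p = 0.53), and Kif11, the kinesin that pushes spindle poles apart (log2 0.67, SE 0.22, limma adjusted p = 0.59). Kif11 gave 183, 171 and 196 in the same mutants and 112 after DDC, which was raised to the floor.

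Other cell markers moved between these arrays too. Sinusoidal endothelial markers summed to 17049, 33370.2 and 23975.5 in Mx1-Cre, Alb-Cre+/- and Alb-Cre+/+ EpCAM+ cells (9 of 9 above background on each), against 2275 (6 of 9) in DDC EpCAM+ cells. Macrophage markers summed to 615 (3 of 9), 7651 (8 of 9) and 1199 (2 of 9) in the mutants, against 823 (3 of 9) after DDC. Stellate cell and fibroblast markers summed to 11702 (5 of 9), 20548.5 (6 of 9) and 7768 (5 of 9) in the mutants, against 3635 (6 of 9). Most of the mutant sums was Reln, with 9429, 15518 and 4066, against 316 after DDC. Dcn gave 370, 2507 and 2001, against 700, and Rgs5 1639, 2057 and 1181, against 2274. Neutrophil and myeloid precursor markers summed to 265 (2 of 7), 992 (4 of 7) and 1894 (4 of 7), against 1012 (5 of 7). Hepatocyte markers summed to 43036.5, 61465 and 49765, against 19222, most of it Ttr, without which the sums were 5065, 14905 and 14246, against 4487. Ductular markers summed to 60805, 59958 and 43068, against 62797. The part of these cells in the difference from DDC was not tested. Adgre1, which encodes the F4/80 antigen that the sort selected against, was not above background in Mx1-Cre, Alb-Cre+/+ or DDC EpCAM+ cells and gave 664 in Alb-Cre+/- EpCAM+ cells.

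The mutants differed among themselves in which genes stood high. Cdk1 gave 799.9 in Mx1-Cre EpCAM+ cells and 272 in Alb-Cre+/+ EpCAM+ cells (2.94-fold), and Cdc20 (3.65-fold), Plk1 (3.25-fold) and Nusap1 (4.64-fold) were likewise over 2-fold higher in Mx1-Cre. Bub1b (1922 and 1947) and Aurka (546 and 557) were within 1.02-fold in the same pair, and Cenpa was lower in Mx1-Cre (2481 and 3589). In all, 7 of 23 genes above background on both arrays were over 2-fold higher in Mx1-Cre and none lower, against 8.3% and 7.62% of 8408 genes. With bounds included, 8 of 27 were higher and none lower (8.33% and 7.73%), and under median scaling 6 of 25 were higher, and the split of all genes was 5.75% higher and 11.5% lower. Over Alb-Cre+/-, Mx1-Cre was above 1-fold in 27 of 27 genes (52.4% of all genes), 3 of them bounds that could not lie lower. Of the 27, 4 were over 2-fold higher and none lower (3.15% and 4.59% of all genes). Without bounds, 3 of 24 were higher and none lower (3.25% and 4.1%). Of the 29 genes above background on any EpCAM+ array, Mx1-Cre was the highest in 21 (24.8% of all genes) and Alb-Cre+/+ in 7 (28.9%), and DDC was the lowest in 18 (21.2%).

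The Alb-Cre+/+ genotype was measured in both fractions, and there the mitosis genes parted in both directions. Cdc20 gave 511 in EpCAM+ cells and 1916 in hepatocytes (3.75-fold lower in EpCAM+ cells, log2 -1.91, SE over beads 0.15). Plk1 gave 275 in EpCAM+ cells and 944 in hepatocytes (log2 -1.78), and Cdk1 272 and 751 (log2 -1.47). On the other side, Ncapd2 gave 830.2 in EpCAM+ cells and 313 in hepatocytes (2.65-fold higher), and Bub1b 1947 and 771 (2.52-fold higher).

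**Figure D5:**
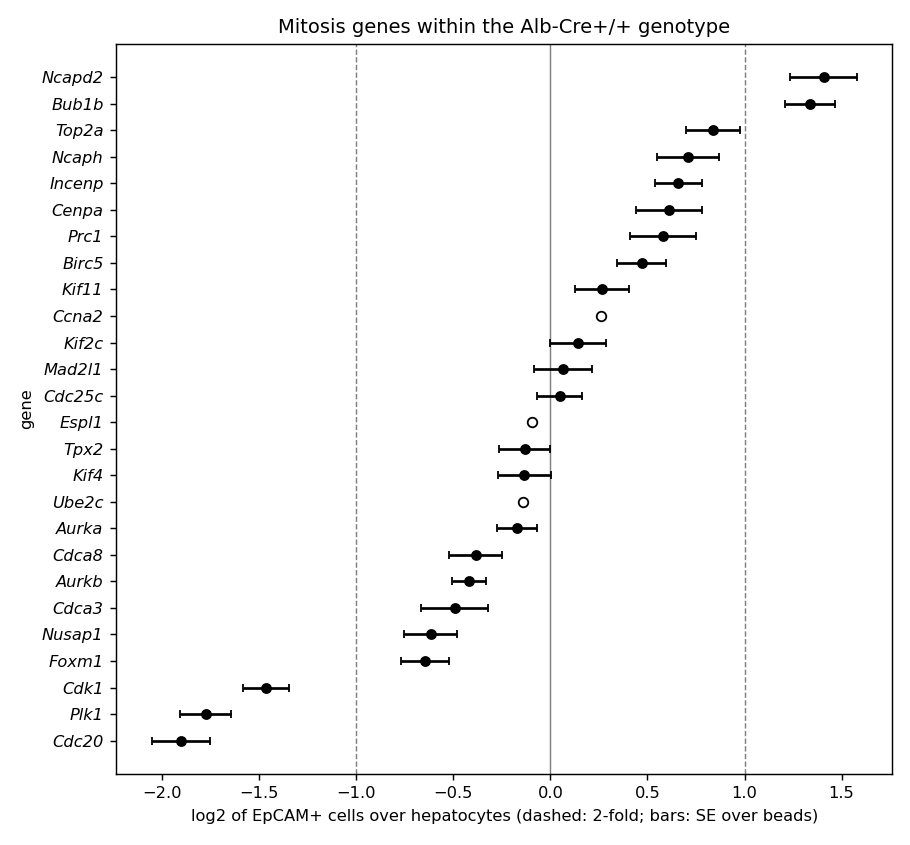
Log2 of the signal in EpCAM+ cells over hepatocytes of the Alb-Cre+/+ genotype for 26 mitosis genes, 1 array each, with bars for the standard error over beads, open points for bounds and dashed lines at 2-fold. Cdc20, Plk1 and Cdk1 lie beyond 2-fold lower and Ncapd2 and Bub1b beyond 2-fold higher.

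The others of the 26 genes with a fold lay within 2-fold, among them Prc1 (2472 in EpCAM+ cells and 1655 in hepatocytes), Cenpa (3589 and 2351) and Foxm1 (207 and 324). Ccna2, Ube2c and Espl1 were bounds, so that their differences may be larger. Above background on both arrays were 23 genes, and EpCAM+ cells had 2 of them over 2-fold higher and 3 lower, against 17% and 12.6% of 8277 genes, and with bounds 2 and 3 of 26, against 15% and 13.1%. The median log2 of the 26 was -0.02, and 0.13 under median scaling, where that of all genes was 0.42, their split was 23.4% higher and 12.7% lower, and 3 of 24 mitosis genes were higher and 3 lower. Ductular markers summed to 43068 in the EpCAM+ cells and 8559 in the hepatocytes of this genotype, hepatocyte markers to 49765 and 196125, and macrophage markers to 1199 and 7798. The age of the mouse behind the hepatocyte array is not given, so that age and fraction cannot be told apart.

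Some genes had further probes above background, which gave a check on single probes. All 3 probes of Cdc20 were lower in EpCAM+ cells than in hepatocytes of the Alb-Cre+/+ genotype (log2 -1.91, -1.74 and -1.69), and both of Bub1b were higher (1.34 and 1.06). Ncapd2 did not hold, since its second probe gave 0.08 where the brightest gave 1.41. In the mutant and wild type hepatocytes, all probes of the 5 genes with more than 1 readable probe had the same direction and lay on the same side of 2-fold. For Mx1-Cre over DDC, 8 of 8 such genes had the same direction and 7 the same side, and for Alb-Cre+/+ over DDC 9 of 9 and 7. Within the Alb-Cre+/+ genotype, 6 of 8 had the same direction and 6 the same side.

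The remaining members were for the most part low or read on few arrays. Ccnb2 (cyclin B2), Cks2, Bub1, Cenpe, Smc2, Kif20a and Racgap1 were above background on no array, which does not show that they were absent, as their probes may be weak. Ccna2 (cyclin A2) was above background in Alb-Cre+/+ EpCAM+ cells alone (138), Cenpf in Mx1-Cre alone (118), Ncapg in Alb-Cre+/- alone (113) and Ube2c, the ubiquitin-conjugating enzyme of the anaphase-promoting complex, in Alb-Cre+/+ hepatocytes alone (131). At a further probe Ncapg was above background in Mx1-Cre (117) and DDC (113) EpCAM+ cells and not in Alb-Cre+/-. Melk gave 300.1 in Mx1-Cre and 112 in DDC EpCAM+ cells and was not above background elsewhere, and Ttk, the checkpoint kinase Mps1, gave 131 and 119.99 on the same 2 arrays only. The chromosomal passenger kinase Aurkb gave 415 in Mx1-Cre, 249 in Alb-Cre+/-, 168 in Alb-Cre+/+ and 244 in DDC EpCAM+ cells, and its partner Incenp 416, 266, 363 and 221, with both not above background in wild type hepatocytes. Birc5, the survivin subunit of the same complex, gave 187, 164, 262 and 166 in the 4 EpCAM+ arrays in that order and 189.6 in Alb-Cre+/+ hepatocytes, and Cdc25c, a phosphatase that activates Cdk1, gave 246, 134, 215 and 120.5, and 208 in the mutant hepatocytes, and wild type hepatocytes were not above background in either. Espl1, the separase that cuts cohesin, gave 166 in Mx1-Cre and 133 in Alb-Cre+/- EpCAM+ cells and 127 in Alb-Cre+/+ hepatocytes, and was not above background elsewhere.

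Other genes of the mitotic machinery, 71 by list and 66 with a probe, were set beside these. In mutant over wild type hepatocytes over 2-fold differences were 12 of 39 higher and 1 lower (11% and 10% of all genes), in Mx1-Cre over DDC EpCAM+ cells 14 of 54 and none (5.3% and 4.87%), and in Alb-Cre+/+ over DDC 9 of 50 and 3 (8.23% and 8.21%). Of 38 tested in EpCAM+ against hepatocyte arrays, Ska2, of the kinetochore (log2 1.79, limma adjusted p = 0.032), and Ncaph2, of condensin II (log2 1.13, limma adjusted p = 0.033), were called higher and Kif23, a central spindle kinesin, lower (log2 -4.34, limma adjusted p = 0.00038), that is 2 and 1 of 38, against 11.9% and 10.6% of all genes tested. Anln and Spag5 had the next largest differences (log2 1.53 and 1.30) and did not pass, and Mad1l1 and Cenpm the lowest after Kif23 (log2 -0.61 and -0.53). Ska2, Anln and Spag5 were not above background in wild type hepatocytes. They had entered the test through the EpCAM+ arrays alone and so carry little weight. Kif23 gave 217 to 259 in the 4 EpCAM+ arrays, against 3021 in Alb-Cre+/+ and 7739.5 in wild type hepatocytes. It was read at its brightest probe only, and whether that probe reads Kif23 alone was not tested.

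Of 21 regulators of the mitotic programme, 14 were tested and 2 were called higher in EpCAM+ cells, Tfdp2, an E2F partner (log2 1.76, limma adjusted p = 0.013), and Pkmyt1, a kinase that holds Cdk1 inactive (log2 0.91, limma adjusted p = 0.045), with none lower. The count of 2 of 14 is near the 11.9% of all genes called higher in this fit. Mybl2, which encodes B-Myb, gave 1010.34, 200.2 and 1009 in Mx1-Cre, Alb-Cre+/- and Alb-Cre+/+ EpCAM+ cells, against 164 after DDC (log2 of EpCAM+ over hepatocyte arrays 1.28), and E2f5 had a log2 of 1.22, both without passing. At the lower end were Nfyb (-1.25), Lin37 (-0.32) and Rbbp4 (0.04), none called. Of 15 Cdk inhibitors and G1 cyclins, 10 were tested and Cdk4 (log2 1.91, limma adjusted p = 0.013) and Ccnd2 (log2 1.69, limma adjusted p = 0.033) were called higher (11.9% of all genes) and none lower (10.6%), while Ccnd1 had 1.84 without passing, and Cdkn2d (-0.22), Cdkn2c (-0.19) and Cdkn1c (-0.11) were lowest. Pkmyt1, Mybl2 and Ccnd2 were not above background in wild type hepatocytes. They, too, had entered the test through the EpCAM+ arrays alone and so carry little weight. Cdkn1a, which encodes the Cdk inhibitor p21, gave 1891 in Mx1-Cre, 5531 in Alb-Cre+/-, 4567 in Alb-Cre+/+ and 3627 in DDC EpCAM+ cells, and 4976 in Alb-Cre+/+ and 975 in wild type hepatocytes. Its signal was thus 5.10-fold higher in the mutant hepatocytes, beside the mitosis genes that were higher on the same array.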

How the data were processed

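RNA of 6 samples was hybridised to Illumina MouseWG-6 v2 BeadChips, 1 array per condition, and Cy3 signals were summarised per probe with GenomeStudio. The authors deposited non-normalized signal intensities with detection p-values, standard errors over beads and counts of beads per probe (median 42 to 44), and intensities that they quantile normalized. Versions are not given in the sources used here. The deposited normalized intensities are on a linear scale without background subtraction, and were used as the main values. Of 45281 probes, 34885 had 1 gene symbol, 18 several and 10378 none in the annotation, and symbols were updated through Entrez IDs.

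Genes were read at the brightest probe. Above background means a detection p under 0.05. A fold against a signal that failed this is a bound, taken against that array's lowest passing signal or the gene's own if higher, and folds over 2 were counted. For limma 3.58.1 (R 4.3.3; lmFit, eBayes with trend, Benjamini-Hochberg over all genes tested), signals under 114.847 were raised to it before log2. All mitosis genes with a probe are named, and of the other lists the 3 highest and 3 lowest in the EpCAM+ against hepatocyte fit and those called. Median scaling, own quantile normalization, normexp (offset 16), a detection p of 0.01, other probe rules, filters, floors, weights and left-out arrays were tried. The code was tested on simulated data. The gene set and lists were chosen with earlier results of these data known. Promoter windows are those of RefSeq, GRCm38.p6. The number of arrays limits the precision.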

Additional observations from a re-analysis of the deposited data

Results flagged for a closer look

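In 3 of 29 mitosis genes, 1 of the 4 EpCAM+ arrays stood apart from the others: its gap to the nearest array, as a share of the whole range, was 1 in each. They were Ccna2, highest in Alb-Cre+/+ EpCAM+ cells, and Melk and Cenpf, both highest in Mx1-Cre EpCAM+ cells. In all 3 genes the other 3 arrays lay at or under the common floor of 114.847 and so had no spread, and the highest signals were 138, 300.1 and 118. Chance gives such a gap in about 1 in 20 groups, which is 1.45 of 29, and the 4 arrays are different models and not replicates.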

How the results depend on the processing

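No paired analysis was possible because each condition was a single array and the labels carry no replicate numbers. In the test of EpCAM+ against hepatocyte arrays, no mitosis gene was called higher, and 1 gene, Top2a, was called higher under normexp background correction, a detection p under 0.01, the mean of all probes and a floor at 1. Leaving out each array in turn gave 0 to 1 genes called higher and 0 to 1 lower. Those calls came only without a hepatocyte array, where the lone one left was assumed to vary like the EpCAM+ arrays. They were Mad2l1 higher, and Ccnf and Ube2c lower, both with all EpCAM+ signals raised to the common floor and so without spread, so that nothing is read from them. In the test of mutant against DDC EpCAM+ arrays every alternative, left-out arrays included, gave 0 in both directions. All genes called in the first test were 1057 higher, against 560 and 249 with wider filters (above background on at least 1 array, and no filter), 601 with array weights, 248 without the wild type array and 641 without the Alb-Cre+/- array. Ccnf, the 1 gene over 2-fold lower than in wild type hepatocytes, was not counted (0 genes) at a detection p under 0.01 in any of the 5 comparisons, nor for any of the 4 EpCAM+ arrays over genes above background on both arrays, nor under median scaling for Alb-Cre+/+ EpCAM+ cells. The genes higher in DDC EpCAM+ cells than in wild type hepatocytes were 5, and 3 under median scaling, 8 with normexp and 2 with the mean of all probes. The shares of all genes were 21.2%, 16.8%, 26% and 17.7%, in that order. Those higher in Alb-Cre+/- than in DDC EpCAM+ cells were 5 (5.82% of all genes), and 11 with normexp (10.3%). Those higher in EpCAM+ cells than in hepatocytes of the Alb-Cre+/+ genotype were 2 (15%), and 1 with the mean of all probes (12%). The cause of these shifts was not tested. The mitosis genes' median log2 changed sign in EpCAM+ against hepatocyte arrays without the wild type array (0.33 with it, -0.06 without), and in EpCAM+ cells over hepatocytes of the Alb-Cre+/+ genotype (-0.02, but 0.13 under median scaling, and 0.05 at a detection p under 0.01 or without bounds). Signals near background limit what can be read: the wild type array had the fewest probes above it, and 7 mitosis genes had none.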
